A study of Drosophila melanogaster with 7 samples.

Results

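The comparison of GAL4 line 89 with the strain w1118 rested on 4 of the 7 arrays of the series. The line 89 animals carried the transgene P{hs-GAL4}89, in which the hsp70 promoter drives yeast GAL4. Its 2 arrays came from animals with 2 copies and from animals with 1 copy, and they were treated as 1 group. The w1118 animals carried no GAL4 and gave 2 arrays, described as biological replicates. The other 3 arrays came from animals with 2 copies of a different insertion, P{hs-GAL4}X1. Every array held RNA of salivary glands from Drosophila melanogaster prepupae, which were kept at 25 °C and whose glands were taken 14 h after puparium formation. All animals received a heat shock of 30 min at 37 °C, at 9 h after puparium formation in line 89 and X1, and at 9.5 h in w1118. Dissection thus followed the start of the heat shock by 5 h in the GAL4 lines and by 4.5 h in w1118. This difference in time, and any difference in strain background, cannot be told apart from the presence of GAL4 in line 89 against w1118. The heat-shock promoter is not specific to the gland, line 89 is a single insertion, and the labels do not say how many animals were pooled.

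GAL4 is a transcription activator of yeast, where it binds upstream activating sequences of the galactose genes. Flies have no such protein, and fly researchers use it to drive transgenes placed behind those sequences. No such transgene is named in the labels, so the comparison asked which genes of the gland itself differ when GAL4 is made. The larval salivary gland is a polyploid secretory tissue that makes glue before pupariation and other secreted proteins afterwards. In the late prepupa a pulse of the steroid ecdysone leads it into a programmed death with features of autophagy and caspase activity.

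The arrays measured 18769 fly probe sets, as intensities on a linear scale. The median intensity was 44.9 in line 89 with 2 copies, 40.8 with 1 copy, 33.7 to 38.0 in X1, and 42.2 and 42.5 in w1118. Over probe sets, which are no replicates of each other, log2 values correlated at r = 0.935 between the line 89 arrays and at 0.978 between the w1118 arrays. The array with 2 copies correlated at 0.886 and 0.887 with the w1118 arrays, and the array with 1 copy at 0.928 and 0.927. The 5' to 3' signal ratio of the bacterial control RNA dap was 0.269 and 0.278 in line 89, 0.0447 to 0.0622 in X1, and 0.472 and 0.344 in w1118. That of the fly control eIF-4a was 0.369 and 0.575 in line 89, against 0.633 and 0.612 in w1118. The 18S ribosomal RNA probe sets stood at 503 to 893 on the 2-copy array of line 89 and at 147 to 213 on the 1-copy array, against 52.2 to 122 in X1 and 68.3 to 236 in w1118. The part of these labelling or RNA differences in the results was not tested. The tables used here pair no probe set with GAL4 or with white, so no value is given under either name. Among the array's control probe sets, a pair whose identifiers carry a sequence accession with no gene beside it in those tables were bright on all GAL4 arrays. The first had 2367 and 417 in line 89, 1407 to 2348 in X1, and 14.4 and 14.1 in w1118. The second had 1495 and 1010 in line 89, 467 to 596 in X1, and 0.782 and 0.0633 in w1118. Another such control probe set went the other way, with 5.81 and 10.7 in line 89, 4.93 to 9.95 in X1, and 129 and 91.5 in w1118.

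Several salivary gland marker genes were bright in the line 89 samples, as in w1118. Of 21 salivary gland markers 18 were measured, and 0 were called different between line 89 and w1118. Over all genes 3.56% were called higher and 1.62% lower, and with 18 genes a count of 0 is not far from those shares. Of 9 measured genes of the Eig71E cluster, which encode small secreted proteins of the late prepupal gland, 8 lay at 4528 or more on all line 89 and w1118 arrays, and 0 were called. Eig71Ee was the dim one, with 513 and 234 in line 89, against 913 and 1400 in w1118, a log2 difference of -1.71 without overlap (limma adjusted p = 0.173). Eig71Eh had 8223 and 4528 in line 89, against 8961 and 9461 in w1118, also lower without overlap, and Eig71Eg had 12358 and 10540, against 9237 and 9234, higher without overlap. Eig71Ef, the brightest, had an intensity of 16393 with 2 copies of the line 89 transgene and 13691 with 1 copy, against 14479 and 14297 in w1118. The gland transcription factor gene sage had 442 and 340 in line 89, against 475 and 404 in w1118. The glue gene Sgs5 gave 228 and 100 in line 89 and 829 and 564 in w1118, a log2 difference of -2.18 ± 0.48 (SE) that was not called (limma, adjusted p = 0.0907). Sgs7, another glue gene, gave 1953 and 964 in line 89 and 2926 and 3625 in w1118, and was not called either. The groups did not overlap for Sgs5 and Sgs7, and they did for sage and Eig71Ef. The other markers had log2 changes of 0.93 (fkh), 1.43 (ng1), 0.32 (ng2), 0.71 (ng3), 0.36 (Sgs3) and -0.89 (Sgs8), without a call. A separate list of salivary gland identity genes had 0 calls of 14, or 1 rise with hybridization control scaling. Its median log2 change was 0.46, with summed intensities of 4217 and 3218 in line 89, against 1870 and 2234 in w1118.

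Line 89 glands differed from w1118 glands in both directions, and the large changes were mostly rises. In all 822 of 18769 probe sets (4.38%) were called, 513 higher (2.73%) and 309 lower (1.65%) in line 89. A call means an adjusted p under 0.05 in a limma fit of the 7 arrays in 3 groups, on log2 values with a floor of 16. The arrays of both groups did not overlap for any of the 822, but neither did they for 45.5% of all probe sets. At an unadjusted p under 0.05 there were 3356 probe sets. The fit takes its spread from all 7 arrays, and the 2 arrays of line 89 put the difference in copy number into that spread. With the 4 arrays of line 89 and w1118 alone the count of calls from limma was 0, with 3053 probe sets at an unadjusted p under 0.05, so every call below uses the X1 arrays for its error. The count of calls was 1804 when the 1-copy array was left out, and 478 or 510 when w1118 replicate 1 or 2 was. Without X1 replicate 2 or 3 there were 289 or 254. The p-values measure the spread between arrays, which may be partly technical.

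**Figure D1:**
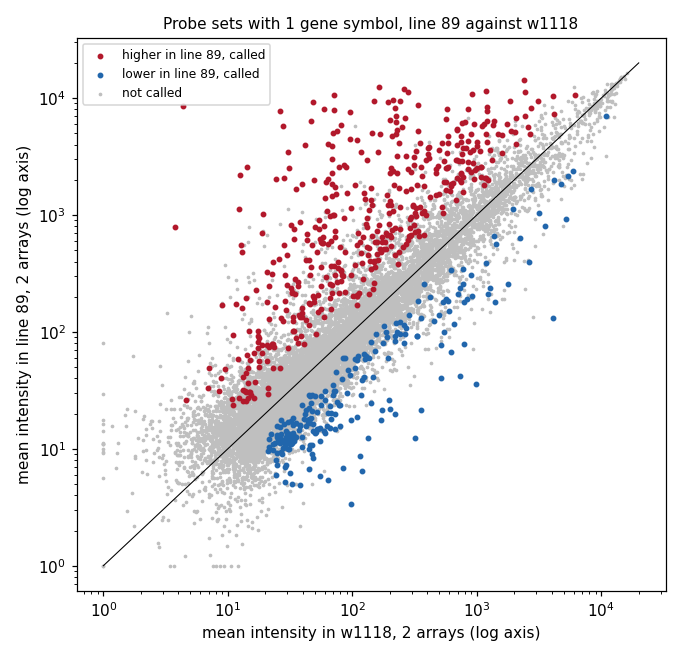
Mean intensity over the 2 line 89 arrays (vertical, log axis) against the mean over the 2 w1118 arrays (horizontal, log axis) for each probe set with 1 gene symbol; means under 1 are drawn at 1. Probe sets called higher in line 89 (red) spread far above the diagonal line of equal intensity, while those called lower (blue) lie nearer to it and mostly at low intensity.

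The size of the change separated rises from falls. Of the probe sets called higher in line 89, 452 of 513 changed at least 2-fold, 154 at least 8-fold and 44 at least 32-fold. Among the 309 called lower, 195 changed at least 2-fold, 18 at least 8-fold and 1 at least 32-fold. Only rises reached 64-fold, with 19 probe sets, and 8 of these reached 128-fold. The probe sets called higher had a median intensity of 781 in line 89, against 109 in w1118. Those called lower had a median of 17.3 in line 89, against 58.8 in w1118, and in 105 of them both line 89 arrays lay at or under 16. Among 1697 probe sets whose brighter group mean was at least 1000, 232 were called higher and 23 lower in line 89. Among 10439 probe sets with a brighter mean under 64, 59 were called higher and 162 lower.

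The balance of rises and falls moved with the scaling and the floor. With the arrays scaled on their hybridization controls, 1439 probe sets were called higher and 96 lower, and the median change of all probe sets moved from 0 to 0.41 on the log2 scale. A floor of 1 gave 345 higher and 64 lower, and a filter on dim probe sets gave 648 higher and 185 lower. Without w1118 replicate 1 the counts were 178 higher and 300 lower, and without replicate 2 they were 193 higher and 317 lower. Fewer gland cells of a kind and less RNA per cell cannot be told apart in these bulk samples.

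Probe sets with 1 gene symbol stood for 11982 genes. Of these 426 (3.56%) had a probe set called higher in line 89, and 194 (1.62%) had one called lower. These shares are the background against which the counts of gene groups are to be read.

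The largest rises came from genes close to background in w1118 and among the bright ones in line 89. CG9733 had 9725 in line 89 with 2 copies and 7332 with 1 copy, against 2.56 and 6.22 in w1118. This is at least 528-fold (log2 change 9.04 ± 0.22 SE, limma adjusted p = 0.000305), and both w1118 arrays lay under the floor of 16. The acid phosphatase gene CG9449 had 9213 and 6430 in line 89, against 28.3 and 24.6 in w1118, a 292-fold rise seen in both of its probe sets. CG9451 and CG9452, which lie beside it and were named after their values were seen, rested on the 2-copy array. CG9451 had 1079 with 2 copies and 97.3 with 1 copy, against 14.9 and 14.0 in w1118, and CG9452 had 1429 and 142, against 17.7 and 11.6. Neither was called (limma adjusted p = 0.126 and 0.0957). CG9733 and CG9449 were bright with 1 copy of the transgene as well as with 2, and the groups were far apart.

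The gene laza encodes a lipid phosphate phosphatase known from photoreceptor cells. It had 8652 and 7619 in line 89, against 80.0 and 39.0 in w1118 (145-fold, 7.18 ± 0.38, limma adjusted p = 0.00248). TpnC73F encodes a troponin C, the calcium sensor of muscle. Its brighter probe set had 12379 and 12389 in line 89, against 160 and 169 in w1118, or 75.3-fold with limma adjusted p = 7.08e-05. The line 89 arrays were almost equal for this probe set. The highest intensities of any fly probe set on them were 16393 with 2 copies and 17212 with 1 copy. Whether signals this bright were near an upper limit of the scale was not tested. The other probe set of TpnC73F had 2792 and 1597 in line 89, against 9.25 and 15.99 in w1118, at least 132-fold.

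nAChRbeta3, a subunit gene of nicotinic acetylcholine receptors, had 3257 and 4744 in line 89, against 48.1 and 34.8 in w1118 (96.0-fold, limma adjusted p = 0.00103). Here the array with 1 copy was the brighter of the line 89 pair. CG7322 had 8805 and 7054 in line 89, against 73.5 and 68.9 in w1118, and the noncoding RNA lncRNA:CR31781 had 1919 and 3265, against 11.7 and 16.8. hoe2, which encodes a predicted membrane transporter, had 3056 and 1023 in line 89, against 12.3 and 36.5 in w1118, and Tdc1, which encodes a tyrosine decarboxylase, had 9156 and 2726, against 92.8 and 68.4. Both were clearly brighter with 2 copies than with 1 copy. Their log2 changes were 6.19 and 5.97, and without the 2-copy array they were 5.40 and 5.10.

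Other genes with known products rose by 32.7-fold to 63.5-fold. Ccm3, the fly form of a gene of cerebral cavernous malformation in humans, had 9843 and 8911 in line 89, against 176 and 124 in w1118 (5.99 ± 0.19, limma adjusted p = 0.000639). Chi encodes Chip, a cofactor that joins LIM-domain transcription factors, and it had 9716 and 8956 in line 89, against 191 and 193 in w1118 (5.60 ± 0.08, limma adjusted p = 0.000107). The arrays within each group were close together for both genes.

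MAN1, an inner nuclear membrane protein gene, had 3045 and 4797 in line 89, against 64.3 and 73.2 in w1118. The gap junction gene Inx7 had 5189 and 3748 in line 89, against 101 and 91.5 in w1118. Vsp37A, a gene of the endosomal sorting machinery, had 8600 and 10175 in line 89, against 248 and 236 in w1118. In these 3 genes and in Amnionless (36.4-fold) and Tina-1 (32.7-fold), the order of the line 89 arrays was mixed, with the 1-copy array the brighter in MAN1, Vsp37A and Amnionless.

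Steps from dim to bright all ran upward in line 89. In 14 probe sets both w1118 arrays lay under 64 and both line 89 arrays lay at 1000 or more, and in 0 probe sets was it the reverse. Of the 14, 13 had 1 gene symbol, for 12 genes. These were CG9733, CG9449 with 2 probe sets, CG15861, lncRNA:CR31781, TpnC73F, CG14949, nAChRbeta3, CG11562, hoe2 and, named after their values were seen, CG11438, CG15211 and CG34205. CG11438, for example, had 2625 and 1553 in line 89, against 22.8 and 33.7 in w1118.

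**Figure D2:**
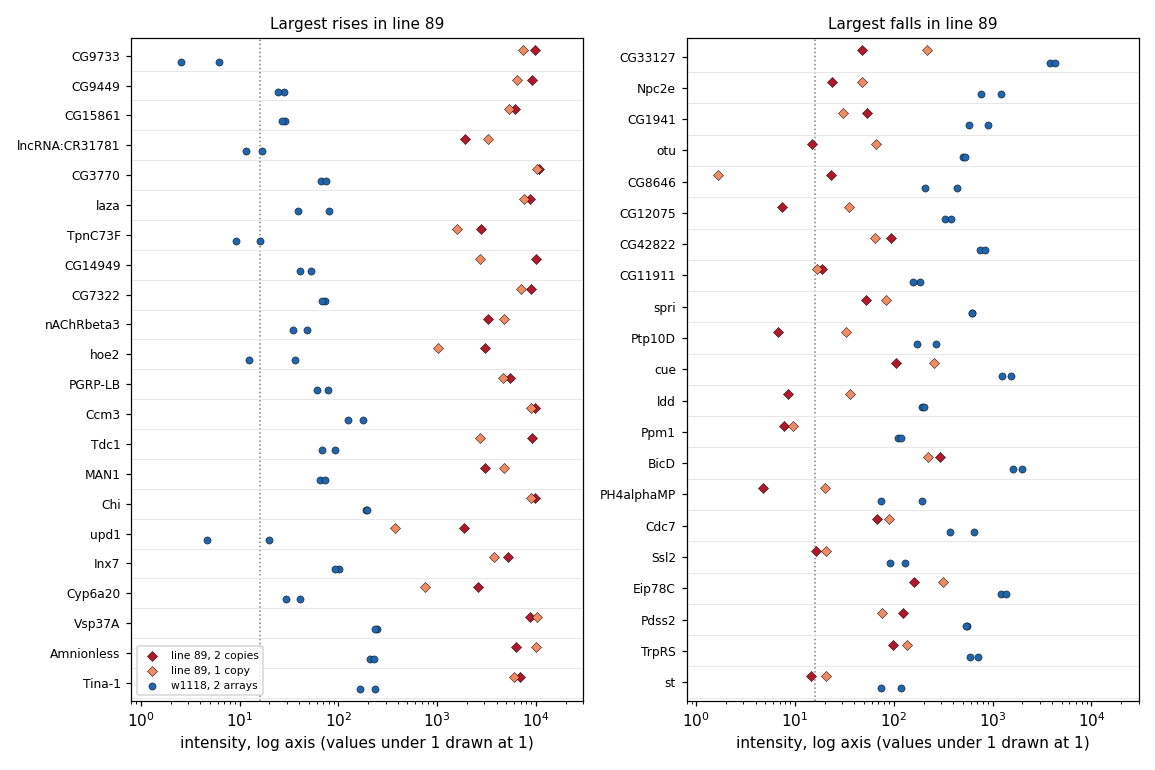
Intensity on a log axis for the genes with the largest called rises (left) and falls (right) of line 89 against w1118, 1 row per gene; diamonds are the line 89 arrays with 2 copies (dark red) and 1 copy (orange), circles the 2 w1118 arrays, and the dotted line is the floor of 16. In every row the diamonds and the circles are separate; rises such as CG9733 (9725 and 7332 in line 89, 2.56 and 6.22 in w1118) span more of the axis than falls such as BicD (293 and 221 in line 89, 1600 and 1979 in w1118).

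Falls were smaller and many ended near the floor. CG33127 showed the largest, with 47.9 and 217 in line 89, against 3850 and 4304 in w1118 (-5.32 ± 0.76, limma adjusted p = 0.0323). Its fall was 4.23 on the log2 scale without the 2-copy array, and the call ended without any 1 of the w1118 or X1 arrays. Npc2e, of a family of sterol-binding proteins, had 23.5 and 48.1 in line 89, against 768 and 1209 in w1118. It fell 28.7-fold (-4.84 ± 0.40, limma adjusted p = 0.00783), and both line 89 arrays lay far below both w1118 arrays.

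CG1941, a relative of the diacylglycerol acyltransferases that make storage fat, had 53.2 and 30.4 in line 89, against 894 and 576 in w1118 (17.8-fold lower). The germline gene otu, which encodes a deubiquitinase, had 14.8 and 66.5 in line 89, against 498 and 529 in w1118 (-3.98, limma adjusted p = 0.0470, call held in 7 of 15 alternatives). CG11911 had 18.7 and 16.8 in line 89, against 183 and 157 in w1118 (-3.26, limma adjusted p = 0.000695). All its line 89 values were at the edge of the floor.

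BicD, an adaptor that links dynein to its cargo, kept a clear signal while it fell. It had 293 and 221 in line 89, against 1600 and 1979 in w1118 (-2.81 ± 0.23, limma adjusted p = 0.00771). Ppm1, a predicted protein phosphatase gene, had 7.71 and 9.54 in line 89, against 111 and 118 in w1118, at least 7.15-fold lower. The eye pigment transporter gene st, whose product pairs with that of white, had 14.4 and 20.7 in line 89, against 74.6 and 119 in w1118 (-2.37).

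Other falls under the same naming rule were those of CG8646 (-3.96), CG12075 (-3.90, and -1.03 without a call in its other probe set), CG42822 (-3.33), cue (-3.09) and ldd (-3.06, called in both of its probe sets). The prolyl hydroxylase gene PH4alphaMP (-2.74), the replication kinase gene Cdc7 (-2.68), Ssl2 (-2.55) and Pdss2, a gene of ubiquinone synthesis (-2.51), followed. Cdc7 had 66.9 and 88.8 in line 89, against 374 and 656 in w1118. The calls of CG8646, PH4alphaMP and Ssl2 held in 5 or fewer of 15 alternatives, and those of CG12075, CG42822, cue, ldd, Cdc7 and Pdss2 in 6 to 8.

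Some named falls were seen in only part of a gene's probe sets. For spri, a guanine nucleotide exchange factor gene, 1 of 4 probe sets was called, with 52.1 and 83.5 in line 89 and 614 and 617 in w1118. For Ptp10D, a receptor tyrosine phosphatase gene, 1 of 2 was called (-3.22), and the other changed by -0.26. For TrpRS, which charges tryptophan tRNA, 1 of 3 was called (-2.48), and the others changed by -0.01 and -1.01. Whether these changes lie in some transcripts of a gene only was not tested.

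Signalling genes that rose included ligands of stress and growth pathways. upd1, a ligand gene of the JAK/STAT pathway, had 1872 and 376 in line 89, against 19.7 and 4.65 in w1118 (5.56 ± 0.78, limma adjusted p = 0.0304). The line 89 arrays differed 4.98-fold, and the change was 4.40 without the 2-copy array and 6.72 without the 1-copy array. Its call held in 7 of 15 alternatives. Over all genes 3.56% were called higher and 1.62% lower. Of 9 measured genes of this pathway, 2 rose and 0 fell, or 4 and 0 with hybridization control scaling. The other was Socs44A, a member of the family of cytokine signalling suppressors, with 4214 and 4001 in line 89, against 616 and 558 in w1118 (2.81 ± 0.09, limma adjusted p = 0.000695). The receptor gene dome had 1923 and 1290 in line 89, against 302 and 507 in w1118, and missed the threshold (limma adjusted p = 0.0529). Stat92E, the transcription factor of the pathway, gave 868 and 1887 in line 89 and 2374 and 2108 in w1118 and was not called.

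egr encodes a tumour necrosis factor that acts through the JNK kinase. It had 1603 and 1377 in line 89, against 216 and 167 in w1118 (7.83-fold, limma adjusted p = 0.0304, call held in 6 of 15 alternatives). It was the only called gene of 16 measured in the JNK list, beside 3.56% higher and 1.62% lower over all genes. puc, the phosphatase gene that this pathway switches on, gave 1958 and 960 in line 89 and 2065 and 2499 in w1118 and was not called. Debcl, a Bcl-2 family gene, had 2492 and 2131 in line 89, against 272 and 321 in w1118 (7.80-fold, limma adjusted p = 0.0137). Debcl and egr were the 2 called genes of 20 in the cell death list, both higher, and with quantile normalization the list had 2 higher and 3 lower. The apoptosome gene Dark gave 2147 and 2968 in line 89 and 5126 and 5429 in w1118, without overlap and without a call (limma adjusted p = 0.121). Of 25 autophagy genes 0 were called, with a median log2 change of -0.40, against 0 over all genes.

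Ecdysone response genes moved both ways, with 3 higher and 2 lower of 28, or 4 and 0 with hybridization control scaling. Over all genes the shares were 3.56% higher and 1.62% lower. ImpL2 encodes a secreted protein that binds insulin-like peptides, and it had 9248 and 4278 in line 89, against 231 and 302 in w1118 (23.8-fold, limma adjusted p = 0.00883). The nuclear receptor gene Hr78 had 6550 and 9989 in line 89, against 2886 and 2607 in w1118 (2.95-fold). The repressor gene ken was 3.05-fold higher in line 89. Eip78C, another nuclear receptor gene, had 161 and 314 in line 89, against 1214 and 1362 in w1118 (-2.51, limma adjusted p = 0.0484, call held in 5 of 15 alternatives). ImpE2, an inducible gene of imaginal discs, had 64.7 and 60.0 in line 89, against 124 and 132 in w1118. The ecdysone receptor gene EcR gave 719 and 914 in line 89 and 749 and 727 in w1118, so the groups overlapped. Its partner usp and the death regulator Eip93F were not called.

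Immune genes of the Toll and IMD pathways had 5 rises and 0 falls among 35 measured, or 8 and 0 with hybridization control scaling. Over all genes the shares were 3.56% higher and 1.62% lower. PGRP-LB, an enzyme that degrades bacterial peptidoglycan, had 5496 and 4592 in line 89, against 78.5 and 60.3 in w1118 (73.0-fold, limma adjusted p = 0.000533). The NF-κB gene dl had 641 and 512 in line 89, against 64.9 and 50.5 in w1118 (10.01-fold), and its second probe set was also called. The kinase adaptor gene Tab2 rose 5.18-fold. The Toll ligand gene spz and the amidase gene PGRP-SC2, named after their values were seen, had log2 changes of 3.39 and 2.32. Among 21 antimicrobial and related peptides Def, for a defensin, was called, with 13017 and 15624 in line 89, against 3385 and 1415 in w1118 (6.51-fold, limma adjusted p = 0.0387).

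In the heat shock list 1 of 19 measured genes rose and 0 fell, beside 3.56% higher and 1.62% lower over all genes. The rise was that of the Hsp90 cochaperone gene p23, with 4107 and 6181 in line 89, against 2233 and 1828 in w1118 (2.49-fold, limma adjusted p = 0.0468). The median log2 change of this list was 0.20. With quantile normalization the list had 0 rises and 1 fall. The Hsp70 probe sets list several genes each, and 1 of 5 was called. It had 16.3 and 3.73 in line 89, against 30.8 and 25.4 in w1118, and it also lists CG31343. The dimmest uncalled one had 151 and 16.05 in line 89, against 17.7 and 16.3 in w1118, so the groups overlapped. The brightest uncalled one had 10516 and 6795 in line 89, against 1428 and 5581 in w1118 (log2 change 1.58, limma adjusted p = 0.359). The next had 10184 and 4230, against 462 and 2822 (2.52, limma adjusted p = 0.298). A further one had 6948 and 2915, against 401 and 2080 (2.30, limma adjusted p = 0.319). In these brighter probe sets line 89 lay higher without overlap, and w1118 replicate 1 was far below replicate 2. Hsp68 gave 8950 and 5443 in line 89 and 1449 and 5112 in w1118 (limma adjusted p = 0.380), with the same order of the w1118 arrays.

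Metabolic lists had a few strong members, to be read beside the shares over all genes, 3.56% higher and 1.62% lower. Among 16 genes of glycolysis and gluconeogenesis 3 rose and 1 fell, or 5 and 0 without the 1-copy array. Pepck1, the entry enzyme of gluconeogenesis, had 11084 and 11677 in line 89, against 2788 and 2079 in w1118 (4.73-fold, limma adjusted p = 0.0047). The glycolytic genes Pgk and Gapdh1 were 3.35-fold and 2.36-fold higher, and Pfk, for phosphofructokinase, was 2.19-fold lower (call held in 2 of 15 alternatives). Lipid and sterol genes had 2 rises and 3 falls of 30. The nuclear receptor gene Hnf4 rose 2.87-fold and the sterol carrier gene Npc2a 2.20-fold, against the falls of Npc2e and CG1941. The fall of CG1946 was small (-0.38, values under 21 on all arrays) and turned to 0.08 with hybridization control scaling.

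Cytochrome P450 genes had 5 rises and 0 falls of 80, or 10 and 1 without the 1-copy array. Cyp6a20 had 2584 and 746 in line 89, against 40.4 and 29.8 in w1118 (40.02-fold, limma adjusted p = 0.0212, call held in 8 of 15 alternatives). Cyp12c1 had 6695 and 5610 in line 89, against 834 and 699 in w1118 (8.03-fold, limma adjusted p = 0.00155). Cyp301a1 rose by at least 2.58-fold at low intensity, and Cyp6v1 and Cyp6t1, named after their values were seen, had log2 changes of 2.11 and 0.84. Among 70 glutathione and glucuronosyl transferases 2 rose and 2 fell, or 6 and 4 without the 1-copy array and 4 and 0 with hybridization control scaling. GstT4 had 9417 and 13575 in line 89, against 1284 and 1076 in w1118 (9.62-fold, limma adjusted p = 0.0047), and GstE11 rose 3.53-fold. GstD2 and GstD10 were 3.69-fold and 2.12-fold lower. The background for the counts in these lists is the shares over all genes, 3.56% higher and 1.62% lower. Of 16 oxidative stress genes Trxr1, for thioredoxin reductase, was called, 2.72-fold higher. In the clock list the repressor gene tim was the called gene of 12, with 4249 and 1131 in line 89, against 90.1 and 80.5 in w1118. Its other probe set had 1241 and 224 in line 89, against 16.9 and 21.7 in w1118, and missed the threshold (limma adjusted p = 0.0528).

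Tetraspanins, small membrane proteins of which many lie in a cluster at 42E on arm 2R, had 5 rises and 0 falls of 33. The count of rises was 10 with hybridization control scaling and 12 without the 1-copy array. Tsp42Ef had 7187 and 6067 in line 89, against 461 and 672 in w1118 (11.9-fold, limma adjusted p = 0.00302). Tsp42Ei had 4533 and 4988 in line 89, against 568 and 606 in w1118 (8.11-fold), and Tsp42Eh had 711 and 197, against 30.0 and 30.0 (12.5-fold). Tsp42Ej rose 3.55-fold, and Tsp42En, named after its values were seen, had a log2 change of 1.90. Others of the cluster were not called, for example Tsp42Ee with 10384 and 9313 in line 89 and 8973 and 8648 in w1118. All 5 called genes carried names of the 42E cluster, to which many of the family belong. The share of such names in the whole list was not compared. Over all genes 3.56% were called higher and 1.62% lower.

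Lists of genes that serve every cell are to be read beside the shares over all genes, 3.56% higher and 1.62% lower. Some of these lists gained calls under other settings. Of 38 cytosolic ribosomal protein genes 0 were called (1 rise with hybridization control scaling), and likewise 0 of 7 galactose pathway genes. Proteasome genes had 0 calls of 40, with a highest log2 change of 3.68, and 2 rises with hybridization control scaling. V-ATPase and Vps genes had 0 calls of 63, and 4 rises with that scaling. In the galactose list Galk gave 98.3 and 168 in line 89 and 151 and 115 in w1118, with overlap. Mitochondrial ribosomal genes had 3 rises of 71 (9 with hybridization control scaling), led by mRpL28 (8.92-fold), and mRpS2 and mRpS28 were 2.25-fold and 1.99-fold higher. The respiratory chain had 1 rise of 73, COX7A (2.45-fold), or 4 rises without the 1-copy array. The secretory pathway had 2 rises of 61, RabX1 (3.03-fold) and deltaCOP (1.98-fold), or 8 rises and 1 fall without the 1-copy array and 7 rises with hybridization control scaling. Coactivator genes had 4 rises and 4 falls without the 1-copy array and 5 and 0 with hybridization control scaling. With all arrays they had 2 rises and 1 fall of 62, Taf10b (3.78-fold), Taf1 (2.82-fold) and Taf13 (1.63-fold lower). In the replication list Sld5 was the called gene of 28, at least 2.79-fold lower with values under 46. Cuticle protein genes had 9 rises and 3 falls without the 1-copy array and 8 and 0 with hybridization control scaling. With all arrays they had 3 rises and 1 fall of 104, Cpr62Bc (4.55-fold), Cpr49Ac (2.96-fold), Cpr47Ec (1.86-fold) and Cpr47Eg (2.09-fold lower). Calls held in 5 or fewer alternatives for p23, ken, ImpE2, Trxr1, Npc2a, mRpS2, mRpS28, COX7A, deltaCOP, Sld5, Taf13, Cpr47Ec, Cpr47Eg and, among genes given further on, sls and Opbp.

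**Figure D3:**
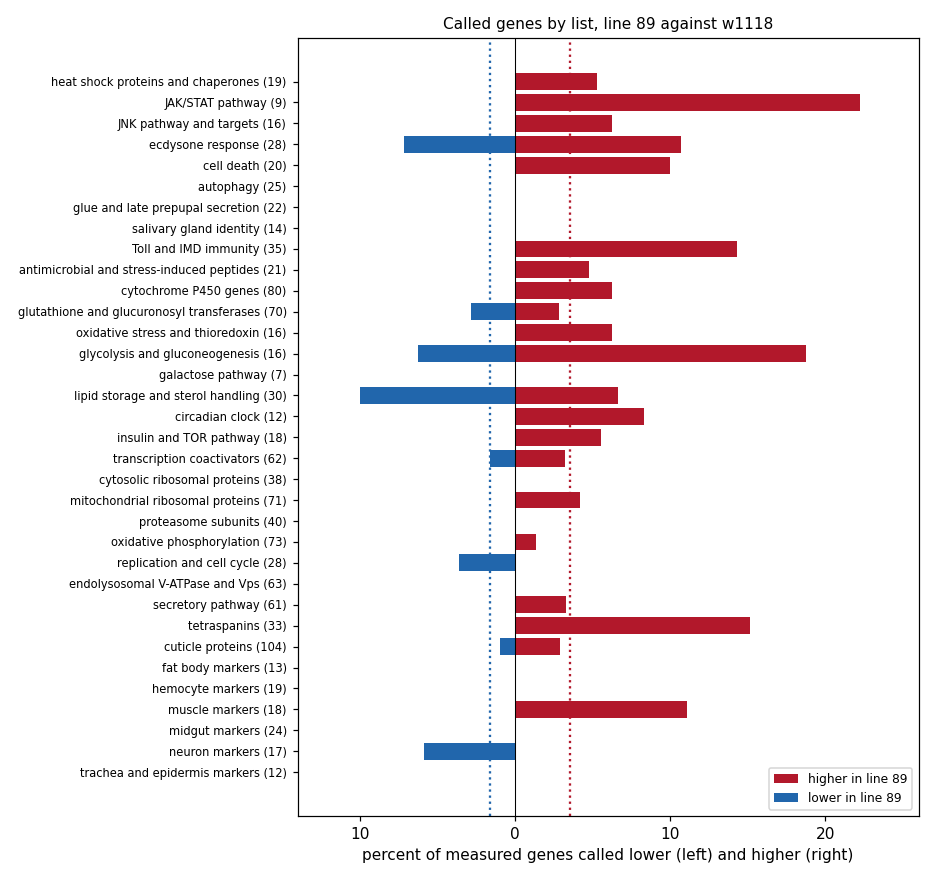
Percent of the measured genes of each list called higher (red, to the right) or lower (blue, to the left) in line 89 against w1118, with the number of measured genes in brackets; the dotted lines are the shares over all genes, 3.56% higher and 1.62% lower. Lists with long bars are short lists, such as JAK/STAT with 2 of 9, glycolysis with 3 of 16 and tetraspanins with 5 of 33.

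Calls among markers of other tissues are to be read beside the shares over all genes, 3.56% higher and 1.62% lower. With hybridization control scaling the fat body, hemocyte and midgut lists had 1 rise each. Fat body markers had 0 calls of 13, and their summed intensity was 35346 and 31024 in line 89, 26462 to 31851 in X1, and 28885 and 30253 in w1118. In this list Lsd-1, a lipid droplet gene, gave 7728 and 618 in line 89 and 320 and 510 in w1118, and Fbp2 gave 37.7 and 996 in line 89 and 1647 and 2267 in w1118. In both, the array with 2 copies stood apart from the other line 89 array. Hemocyte markers had 0 calls of 19, with sums of 12676 and 14485 in line 89, against 12886 and 13021 in w1118. Midgut markers had 0 of 24, with sums of 2249 and 855 in line 89, against 1784 and 1220 in w1118. Trachea and epidermis markers had 0 of 12, with sums of 8491 and 7942 in line 89, against 7147 and 7517 in w1118.

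Muscle markers had 2 calls of 18, TpnC73F and sls, which encodes a giant sarcomere protein (3.88-fold, 1 of its 3 probe sets). Their sums were 25898 and 25938 in line 89, against 13112 and 13378 in w1118, and TpnC73F made up 12379 and 12389 of the line 89 sums. Most of the rest of the sums came from Strn-Mlck, a kinase gene, with 10375 and 11491 in line 89, against 11504 and 11596 in w1118. Zasp52 had 1432 and 491 in line 89, against 335 and 544 in w1118, and bt had 771 and 446, against 164 and 181, both without a call. The other 14 members, sls among them, lay between 5.14 (fln) and 295 (Act79B) on the line 89 and w1118 arrays. Neuron markers had 1 call of 17, ChAT for choline acetyltransferase, with 12.9 and 18.5 in line 89, against 86.3 and 72.2 in w1118. With quantile normalization the neuron list had 2 falls. The neuron sums were 858 and 1291 in line 89, against 820 and 1070 in w1118. The neuronal synapse gene nSyb lay at 8.68 and 23.6 in line 89 and at 27.6 and 34.6 in w1118. The part of other tissues in the glands' differences was not tested.

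Some of the called rises lay side by side on the chromosomes. Among 11884 genes placed in order on the arms, 422 were called higher in line 89, and 100 of these (23.7%) had a called rise as a direct measured neighbour. Over all placed genes 813 (6.84%) had one. The 55 neighbouring pairs included 14 whose genes overlap in the gene table, and whether 1 transcript gave both signals there was not tested. Of 194 genes called lower 9 (4.64%) had a called fall beside them, against 3.23% of all placed genes. No test was run on these shares, and neighbouring genes are not independent.

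Runs of 3 neighbouring measured genes with calls in 1 direction numbered 11, of which 10 were rises and 1 was a fall. On arm 2R, Tina-1, CG15861 and CG3770 lay side by side. Tina-1 had 6863 and 6013 in line 89, against 235 and 165 in w1118. CG15861 had 6145 and 5353, against 28.9 and 26.7, and CG3770 had 10808 and 10279, against 67.4 and 74.7. All 3 were bright on both line 89 arrays, with at most a 1.15-fold difference between 2 copies and 1 copy.

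On 2L, CG3625, Amnionless and CG11562 formed another run. CG3625 had 10962 and 12872 in line 89, against 271 and 244 in w1118. Amnionless, whose product partners the receptor Cubilin in nephrocytes, had 6303 and 10078, against 209 and 230. CG11562 had 2199 and 2859, against 39.6 and 22.1. In this run the 1-copy array was the brighter each time.

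Chi, MAN1 and Not11 on 2R changed by different amounts, 48.6-fold, 55.7-fold and 2.72-fold. Not11, a gene of the CCR4-NOT deadenylase, had 254 and 175 in line 89, against 76.4 and 78.8 in w1118, and its second probe set was not called. Also on 2R were Fmo-2, Debcl and Opbp (10.97-fold, 7.80-fold and 2.88-fold) and the tetraspanins Tsp42Eh, Tsp42Ei and Tsp42Ej. On 2L lay mRpL28, Gmd and CG3792, at 8.92-fold, 7.11-fold and 9.89-fold. Gmd makes an enzyme of fucose synthesis, and it had 1457 and 1977 in line 89, against 245 and 232 in w1118.

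On 3L, CG13920, Vta1 and CG7970 rose 25.0-fold, 6.39-fold and 14.1-fold, where Vta1 is a gene of endosomal sorting. On 3R, CG31313, CG8066 and CG7987 rose 9.58-fold, 11.6-fold and 6.39-fold. On X, AMPKalpha, the energy-sensing kinase, had 1010 and 1340 in line 89, against 363 and 332 in w1118, beside CG3719 (6.70-fold) and CG32813 (3.80-fold). The other X run was CG9577, CG9581 and CG9578, at 1.78-fold, 18.9-fold and 4.48-fold. The run of falls was CG11911, CG33127 and CG43755 on 2L, at 9.57-fold, 39.97-fold and 3.38-fold lower.

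**Figure D4:**
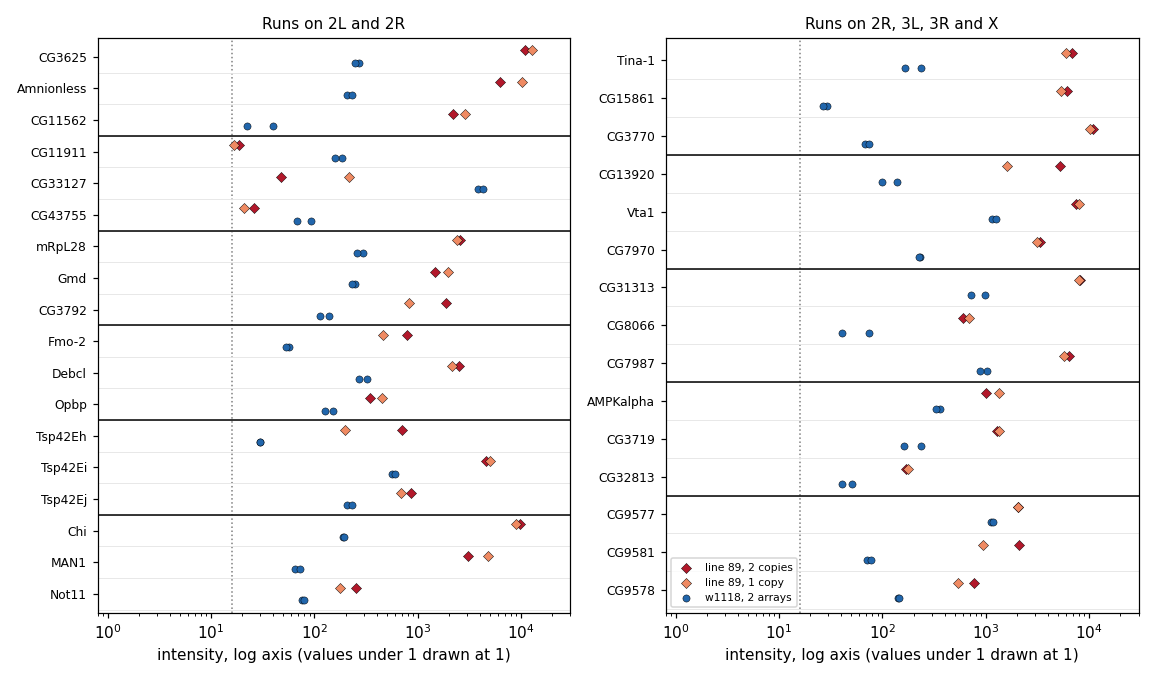
Intensity on a log axis for the 33 genes in the 11 runs of 3 neighbouring measured genes called in 1 direction, in chromosome order and separated by black lines; diamonds are the line 89 arrays with 2 copies (dark red) and 1 copy (orange), circles the 2 w1118 arrays, and the dotted line is the floor of 16. The steps within a run differ: CG9577 (2059 and 2049 in line 89, 1134 and 1175 in w1118) stands beside CG9581 (2080 and 937 in line 89, 70.9 and 76.9 in w1118).

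Calls were spread over the large arms. The share of measured genes called higher was 3.13% on 2L, 3.96% on 2R, 3.20% on 3L, 3.60% on 3R and 4.01% on X, and the share called lower was between 1.24% and 1.94%. On the small chromosome 4, 0 of 65 genes were called in either direction.

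Both line 89 arrays showed the rises, and most were not much larger with 2 copies. Among the 513 probe sets called higher, 323 were brighter with 2 copies and 190 with 1 copy, with a median log2 ratio of 0.17. They were at least 2-fold brighter with 2 copies in 49 cases and with 1 copy in 5. Over all 18769 probe sets the same counts were 2007 and 1454. A gap between the line 89 arrays raises the error and makes a call harder to reach, so these counts are not independent of the calls. Among the 309 called lower, 83 were brighter with 2 copies, 121 with 1 copy and 105 were equal at the floor. There was 1 array for each copy number, so the copy difference has no replicate check.

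The called rise with the highest ratio was CG6023, with 6162 in line 89 with 2 copies and 755 with 1 copy, against 30.9 and 29.9 in w1118. The ratio was 8.16, and the log2 change was 4.63 without the 2-copy array and 7.66 without the 1-copy array. It was followed by upd1 (4.98), CG7550 (4.04), tim (3.76) and CG14949 (3.69). CG14949 had 10110 with 2 copies and 2737 with 1 copy, against 40.7 and 52.4 in w1118. The lowest ratios were those of CG33127 (0.221), otu (0.241), CG7530 (0.396), cue (0.406) and CG12825 (0.424). CG7530 was the only rise among these 5, with 820 with 2 copies and 2070 with 1 copy, against 74.0 and 63.5 in w1118.

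Line 89 was set directly against X1 to see where the GAL4 lines differed. All 3 X1 arrays had 2 copies, the line 89 group held 1 array of each copy number, and the dap ratio was 0.269 and 0.278 in line 89, against 0.0447 to 0.0622 in X1. Insertion, copy number and labelling therefore cannot be told apart in the comparison of these groups, also for the genes that follow. The 2-copy array of line 89 alone matches X1 in copy number, and there insertion and labelling still cannot be told apart. The test of line 89 minus X1 called 371 of 18769 probe sets (1.98%), 234 higher and 137 lower in line 89, and 3618 had an unadjusted p under 0.05. Of the 371, 92 were also called against w1118. Within these, 49 were higher in line 89 than in both other groups, 6 were lower than in both, 21 lay higher than w1118 and lower than X1, and 16 lay lower than w1118 and higher than X1. Without X1 replicate 2 or 3 the limma count was 0, with 2922 and 3120 at an unadjusted p under 0.05. Without either w1118 replicate it called 70. It called 985 without the 1-copy array, where both lines had 2 copies, and 1138 without the 2-copy array. The comparisons of line 89 with X1 and with w1118 share both line 89 arrays, so the counts called in both are not independent support. The comparisons of line 89 and of X1 with w1118 share the w1118 arrays.

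For the genes named with the largest rises and falls the difference between the lines was not called. CG33127, the largest fall, had 32.9 to 62.4 in X1, Npc2e had 43.5 to 45.1 and BicD had 161 to 212. CG9733 had 9725 and 7332 in line 89, 7099 to 9995 in X1 and 2.56 and 6.22 in w1118, and line 89 minus X1 was -0.03 ± 0.20 on the log2 scale (limma adjusted p = 1). For Chi it was -0.01 ± 0.08, for TpnC73F -0.04 ± 0.06 and for CG3770 -0.10 ± 0.08, all with adjusted p above 0.5. upd1 had 1872 and 376 in line 89, against 4255 to 6762 in X1, a difference of -2.71 ± 0.71 that was not called either (limma adjusted p = 0.137). For per, a clock repressor gene, line 89 had 135 and 29.6, X1 599 to 870 and w1118 8.76 and 12.2. Its line 89 value was called against neither X1 (limma adjusted p = 0.0779) nor w1118 (limma adjusted p = 0.252).

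A smaller set of genes separated line 89 from X1. mthl8, a gene of the Methuselah receptor family, had 337 and 289 in line 89, against 4.38 to 20.6 in X1 and 12.3 and 32.9 in w1118. It was higher than X1 by 4.16 ± 0.34 (limma adjusted p = 0.0232) and higher than w1118 by 3.76 ± 0.37 (limma adjusted p = 0.0135), and both of its probe sets were called against w1118. betaTub97EF, a beta tubulin gene named after its values were seen, had 990 and 588 in line 89, against 74.3 to 97.1 in X1 and 52.8 and 47.2 in w1118. It was higher than X1 by 3.17 ± 0.26 (limma adjusted p = 0.0232). For these 2 genes both line 89 arrays stood above all X1 and w1118 arrays.

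In other cases line 89 lay near w1118 and X1 stood apart. CecB, for an antimicrobial cecropin, had 6259 and 10548 in line 89, against 102 to 325 in X1 and 4993 and 3075 in w1118. Its line 89 arrays lay above both w1118 arrays. The potassium channel gene Irk1 had 1892 and 4640 in line 89, against 154 to 223 in X1 and 5698 and 4332 in w1118. CG4757 had 3687 and 1702 in line 89, against 26.2 to 104 in X1 and 2304 and 2303 in w1118. All 3 were called higher in line 89 than in X1, by 5.34, 4.04 and 5.41 on the log2 scale, and were not called against w1118. The call of CG4757 against X1 ended without either line 89 array, and that of CecB without the 1-copy array.

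The reverse also occurred. scpr-C, for a secreted protein of the CAP family, had 73.8 and 35.0 in line 89, against 3698 to 4415 in X1 and 6.85 and 7.40 in w1118 (-6.30 ± 0.33 against X1, limma adjusted p = 0.00913). The homeobox gene eve had 23.2 and 2.12 in line 89, against 272 to 289 in X1 and 8.35 and 7.70 in w1118 (-3.86 ± 0.17 against X1, limma adjusted p = 0.00913). HLH3B, for a helix-loop-helix factor, and Ten-a, for a teneurin, differed from X1 by -4.17 and -3.48 on the log2 scale. For Ten-a this was 1 of 3 probe sets. Its second probe set had 24.5 and 30.0 in line 89, against 6.95 to 19.6 in X1, a difference of 0.66 that was not called (limma adjusted p = 0.118), and in the third the groups overlapped. Line 89 was not called against w1118 for scpr-C, eve, HLH3B or Ten-a.

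CG4783 and CG14109 fell outside both patterns. CG4783 had 4295 and 669 in line 89, against 0.979 to 11.03 in X1 and 399 and 236 in w1118. CG14109 had 88.8 and 367 in line 89, against 6337 to 6864 in X1 and 1704 and 1618 in w1118. For both genes w1118 lay between the GAL4 lines, and line 89 was not called against it (limma adjusted p = 0.247 and 0.0764).

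**Figure D5:**
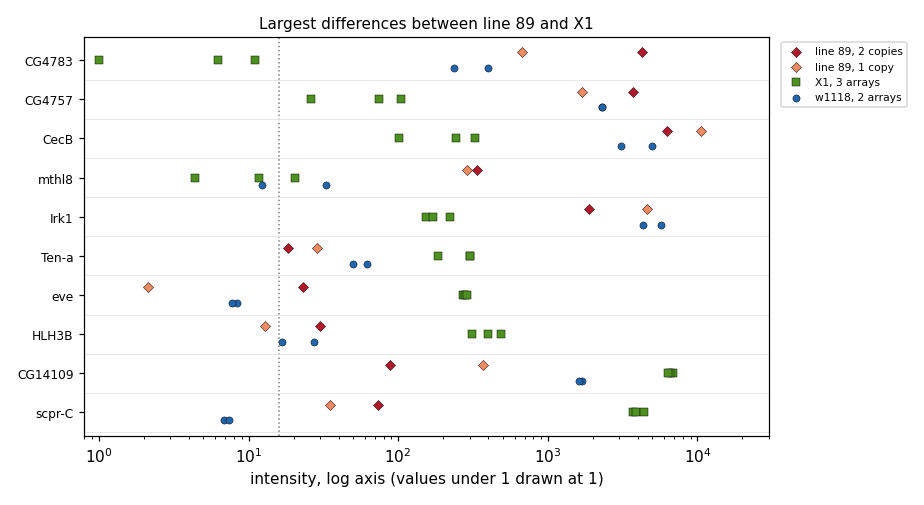
Intensity on a log axis for the 5 genes called highest and the 5 called lowest in line 89 relative to X1; diamonds are the line 89 arrays, squares the 3 X1 arrays, circles the 2 w1118 arrays, and the dotted line is the floor of 16. In Irk1 and CG4757 the diamonds overlap with the circles, and in CecB they lie to the right of them without overlap. In mthl8 the diamonds stand above both other groups, and in scpr-C, eve and HLH3B the squares stand far to the right.

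Several genes called in line 89 against w1118 also differed in size from X1. In the run on X, CG9577 had 2059 and 2049 in line 89, against 5054 to 5373 in X1 and 1134 and 1175 in w1118 (-1.35 ± 0.07 against X1, limma adjusted p = 0.00913). Its neighbour CG9578 had 772 and 539 in line 89, against 1689 to 2026 in X1 and 142 and 146 in w1118. CG32813 had 170 and 177 in line 89, against 638 to 801 in X1 and 40.8 and 51.2 in w1118. The cuticle gene Cpr49Ac had 2437 and 2008 in line 89, against 5234 to 5965 in X1 and 671 and 831 in w1118. In these 4 genes line 89 lay between w1118 and X1 on every array. Taf13, of the general factor TFIID, had 96.4 and 95.6 in line 89, against 55.8 to 62.3 in X1 and 159 and 154 in w1118, again between the other groups. Cpr47Ec had 200.1 and 206 in line 89, against 77.0 to 99.6 in X1 and 102 and 117 in w1118, and here line 89 was above both.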

How the data were processed

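RNA from prepupal salivary glands was hybridised to Affymetrix fly arrays after one-cycle biotin labelling, per the labels' protocols. The deposited values are intensity values on a linear scale, which the authors computed in dChip and normalised to a baseline array with a median intensity of 145, per the series text. For the dChip version and model, the sources used here give nothing. The deposited table held 18952 rows, 183 of them Affymetrix controls that were left out of the tests, and 0 columns of other samples. The platform annotation gave 1 symbol for 13647 probe sets, several for 402 and none for 4720, and 13544 matched a Release 6 gene table, with 0 symbols changed. That table was used for names, arms and neighbours only.

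All values were taken to log2 after a floor of 16 was set. The tests were two-sided, from lmFit and eBayes of limma 3.58.1 (R 4.3.3), on all 7 arrays in 3 groups, with Benjamini-Hochberg adjustment over 18769 probe sets. A fold comes from the difference in mean log2 value, and "at least" marks a dimmer group with every array at or under 16. Errors of log2 changes are limma standard errors. Precision is limited by the number of arrays. The computation of the fit was checked on simulated data with independent noise. That check holds no differences between arrays in copy number or labelling, so it says nothing on the calls. Neighbours are measured genes next to each other on an arm.

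The members, the 34 gene lists and the tests were chosen with earlier results of these data known. Each gene entered a list with its probe set that was brightest over the line 89 and w1118 arrays. Genes were named from called probe sets with 1 symbol and no overlap of the groups, where the brighter group's mean reached the median of all means (43.4). They were the 10 largest rises and falls, the 15 largest of each with a symbol other than a CG or noncoding one, up to 3 called members of each list in each direction, the 5 largest differences from X1 in each direction, members of runs of 3 neighbours, and the 5 highest and 5 lowest ratios of 2 copies to 1 copy. The conditions on overlap and brightness were not set for members of lists or of runs, so some of these were dim. CG1946, for example, had a mean of 20.8 in w1118, its brighter group. Hsp70 probe sets, white and the gland markers were to be reported in any case. Members of a list that were not called are given as values for context and were chosen after their values were seen. Promoters with the GAL4 recognition sequence were not analysed here. Alternatives were floors of 1 and 64, quantile normalization, hybridization control scaling, a filter on probe sets with a brighter mean under 100, a fit of only the groups compared, trend and robust variance, an adjusted p under 0.01, and leaving out each array.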

Additional observations from a re-analysis of the deposited data

Results flagged for a closer look

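The following genes were singled out because the test of line 89 minus X1 was called, so that the change from w1118 differed between these groups of arrays. All X1 arrays had 2 copies while line 89 mixed 2 copies and 1 copy, and the dap ratio differed as well. Insertion, copy number and labelling therefore cannot be told apart between these groups. Only the 2-copy array of line 89 matches X1 in copy number, and there insertion and labelling still cannot be told apart. On the log2 scale line 89 was higher than X1 by 6.73 for CG4783, 5.41 for CG4757, 5.34 for CecB, 4.16 for mthl8, 4.04 for Irk1, 1.19 for Cpr47Ec and 0.72 for Taf13. The difference was -6.30 for scpr-C, -5.19 for CG14109, -4.17 for HLH3B, -3.86 for eve, -3.48 for Ten-a, -2.02 for CG32813, -1.53 for CG9578, -1.35 for CG9577 and -1.35 for Cpr49Ac. All of these calls ended in the fits without X1 replicate 2 and without X1 replicate 3, which called 0 probe sets.

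A signal also appeared in a pair of control probe sets that no comparison used. Their identifiers carry sequence accessions that the tables used here pair with no gene. Control probe set A had 2367 in line 89 with 2 copies and 417 with 1 copy, 1407 to 2348 in X1, and 14.4 and 14.1 in w1118. Control probe set B had 1495 in line 89 with 2 copies and 1010 with 1 copy, 467 to 596 in X1, and 0.782 and 0.0633 in w1118. Both were high on all 5 GAL4 arrays and at background on both w1118 arrays, with the 2-copy array of line 89 above the 1-copy array. Another control probe set, also with no gene beside it, was brighter in w1118. It had 5.81 and 10.7 in line 89, 4.93 to 9.95 in X1, and 129 and 91.5 in w1118.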

How the results depend on the processing

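Counts of calls, given as all, higher and lower, depended on the settings. For line 89 against w1118 (822, 513 and 309) they were 409, 345 and 64 with a floor of 1, 489, 286 and 203 with a floor of 64, 1535, 1439 and 96 with hybridization control scaling, and 197, 138 and 59 at an adjusted p under 0.01. A filter on dim probe sets left 185 lower. In the fit of the 4 arrays alone limma called 0, 0 and 0, with 3053 at an unadjusted p under 0.05. Leaving out each array gave 254 to 1804 calls, 175 to 1201 higher and 79 to 603 lower. For line 89 against X1 (371, 234 and 137) the counts were 62, 33 and 29 with a floor of 1, 113, 64 and 49 with a floor of 64, and 139, 65 and 74 with trend and robust variance. They were 70, 43 and 27 with only the groups compared, and 23, 11 and 12 at an adjusted p under 0.01. Quantile normalization gave 111 higher, and hybridization control scaling 89 lower. Leaving out each array gave 0 to 1138 calls, 0 to 786 higher and 0 to 408 lower, and limma's 0 came with 2922 and 3120 at an unadjusted p under 0.05. The cause of these shifts was not tested beyond the smaller number of arrays or probe sets that some settings leave. The change of CG1946 reversed to 0.0758 with hybridization control scaling. Of 115 named called values 39 held their call in all 14 alternatives other than the fit of only the groups compared, 53 held it in at least 10 of 15, and 110 kept their direction in all. No paired analysis was possible because both line 89 arrays carry replicate number 1, so that line 89 shares only that number with the other groups. Low intensity limits the falls: in 105 of 309 both line 89 arrays lay at or under the floor, so only a bound on the change is known there. With 2 arrays a group, the number of arrays limits every error.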
